A study of Homo sapiens with 6 samples.

Results

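Genes of the osteoblast programme were examined in A673/TR/shEF cells, an Ewing sarcoma cell line in which EWSR1::FLI1 can be silenced. The group holds 10 of the 26364 gene symbols in the expression table: the RUNX transcription factors RUNX1, RUNX2 and RUNX3, the osteoblast transcription factor SP7 (osterix), the enzyme ALPL, and the matrix proteins SPP1 (osteopontin), IBSP (bone sialoprotein), BGLAP (osteocalcin), SPARC (osteonectin) and MGP (matrix Gla protein). They were chosen by name as bone and mineralization genes with earlier results of these libraries known, so their differences between the conditions are a description. Where such a difference is set against the limit used for all genes, that too only describes it. All 10 were in the table.

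A673 cells carry the fusion gene EWSR1::FLI1, and every library came from the same engineered background, with an shRNA against the fusion transcript under doxycycline control and growth in medium with blasticidin and zeocin. The 3 EWSR1::FLI1 high libraries received no doxycycline, and the 3 EWSR1::FLI1 low libraries received 1 µg/mL doxycycline for 72 h. Total RNA was depleted of ribosomal RNA and sequenced. Doxycycline and the shRNA were given together, so their effects cannot be told apart here. The series' own description speaks of independent clones and its titles of experiments, and if these were repeats of a single culture the spread between libraries would be technical only.

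Expression is given as FPKM, fragments scaled to transcript length and by a scaling factor for each library, so that levels can be compared between genes. In the libraries labelled EWSR1::FLI1 high, FLI1, whose 3′ part the fusion transcript keeps, was at 11.3, 12.7 and 14.2 FPKM, and in the low libraries at 2.91, 4.29 and 3.68 FPKM. Differences between the groups are stated on the log2(FPKM + 1) scale, low minus high, which understates changes of genes near 0. On it FLI1 fell by 1.57 (SE 0.18, n = 3 and 3, limma adjusted p = 0.000676). A library held 6980361 to 16658933 reads assigned to genes. The scaling factor did not follow these reads, at 0.951 in low replicate 1 (6980361 reads) and 0.829 in high replicate 3 (8359615 reads). EWSR1::FLI1 low replicate 1 stood apart. It had the fewest reads, the smallest total FPKM (255956, against 334614 to 366060 elsewhere) and the lowest estimated library weight, 0.172 against 0.463 to 2.79, and it held the highest median, 0.299 FPKM against 0.107 to 0.187, of the 10860 genes too low to be tested. Low replicate 3 had the next lowest weight, 0.463. Differences of the 10 genes and counts over gene lists are given with and without low replicate 1.

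RUNX factors are DNA-binding subunits that act with the common partner CBFβ. RUNX2 and, downstream of it, SP7 are required for osteoblast differentiation, and RUNX2 protein is known to bind EWSR1::FLI1. Alkaline phosphatase frees phosphate by cleaving pyrophosphate, an inhibitor of mineral formation. Osteocalcin and matrix Gla protein carry γ-carboxyglutamate residues made by a vitamin K-dependent carboxylase, and matrix Gla protein inhibits calcification of soft tissue. Osteopontin and bone sialoprotein are acidic phosphoproteins that bind integrins, and osteonectin is a collagen-binding glycoprotein of bone and of other matrices.

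RefSeq promoter windows, of 250 bases before a transcript start, were at hand for 8 of the 10 genes (12 windows, table build GRCh38.p14), not for MGP and SP7, and each was found exactly 1 time in GRCh37, the build of the expression data. The core letters bound by RUNX proteins, TGTGGT or on the other strand ACCACA, occurred in 4 of the 12 windows, which belong to 4 genes (RUNX2, RUNX3, SPP1 and BGLAP), and in 11.0% of 34788 windows of all genes. The distal windows of RUNX2 and RUNX3 held 2 each, and 0.972% of all windows held 2 or more. The windows with a RUNX core are printed 5′ to 3′ on the gene's strand, up to the gene's 5′ end in the GENCODE annotation. They show which of the windows searched carry the letters of the factors among the 10 genes. The RUNX1 window lies wholly inside its annotated gene, so bases before the 5′ end of RUNX1 were not searched. Capitals mark the RUNX core.
RUNX2, chr6:45295817-45295893, plus strand: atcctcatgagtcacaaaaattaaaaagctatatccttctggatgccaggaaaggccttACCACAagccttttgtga
RUNX3, chr1:25291613-25291751, minus strand: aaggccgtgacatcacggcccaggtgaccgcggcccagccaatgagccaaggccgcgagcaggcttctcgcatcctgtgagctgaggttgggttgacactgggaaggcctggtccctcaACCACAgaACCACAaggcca
SPP1, chr4:88896616-88896818, plus strand: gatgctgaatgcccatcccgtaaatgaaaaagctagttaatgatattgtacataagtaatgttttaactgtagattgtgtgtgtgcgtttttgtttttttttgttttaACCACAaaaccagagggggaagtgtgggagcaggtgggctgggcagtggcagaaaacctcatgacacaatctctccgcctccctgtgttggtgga
BGLAP, chr1:156211725-156211974, plus strand: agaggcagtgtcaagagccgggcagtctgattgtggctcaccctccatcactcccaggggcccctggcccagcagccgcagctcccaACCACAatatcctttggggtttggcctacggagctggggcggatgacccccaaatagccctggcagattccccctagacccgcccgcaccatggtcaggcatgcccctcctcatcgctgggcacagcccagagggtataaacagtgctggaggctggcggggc

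The RUNX2 stretch lies within SUPT3H, a gene on the opposite strand, outside its annotated exons, and the second core of RUNX2, 87 bases before the RefSeq start, falls inside the annotated gene and is not shown. In RUNX3 the cores lie 131 and 123 bases before the start, separated by 2 bases. SPP1 has its core at 142 bases, in a stretch that overlaps an exon of an antisense long noncoding RNA, and BGLAP at 163 bases, inside the readthrough gene PMF1-BGLAP but outside its exons. GGAAGGAA, a tandem of the core that ETS factors such as FLI1 bind, or its reverse complement TTCCTTCC, was in 0 of the 12 windows and in 3.07% of all. The letters TATAAA (or TTTATA) were in 3 windows, of ALPL, IBSP and BGLAP, against 10.8% of all windows. The GC box letters GGGCGG (or CCGCCC) were in 6, against 42.6% of all. Letters absent from these windows may lie elsewhere, and matches are no evidence of binding.

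In EWSR1::FLI1 low cells, transcripts of MGP, SPP1, SPARC, RUNX2, RUNX1 and SP7 were higher in all 3 libraries than in any EWSR1::FLI1 high library. Of all tested genes, 17.5% were separated in this direction and 23.6% in the other. MGP, SPP1, SPARC and RUNX2 were past the adjusted p of 0.01 used for all genes, SPP1 and RUNX2 not with every library left out. RUNX1 was not past it, and SP7 was too low to be tested. MGP and SPP1 went from under 2 FPKM to a mean of 213 and 75.0 FPKM. SPP1 was at 8.06 FPKM in low replicate 1 and at 114 and 103 FPKM in replicates 2 and 3. SPARC was abundant in both conditions, and RUNX2 and RUNX1 stayed low transcripts throughout. SP7 had at most 13 reads in a library. ALPL was lower in all 3 but not past the adjusted p limit. SP7, IBSP and BGLAP stayed below 0.5 FPKM in every library. In bulk RNA, fewer cells with a transcript and less of it per cell cannot be told apart.

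**Figure D1:**
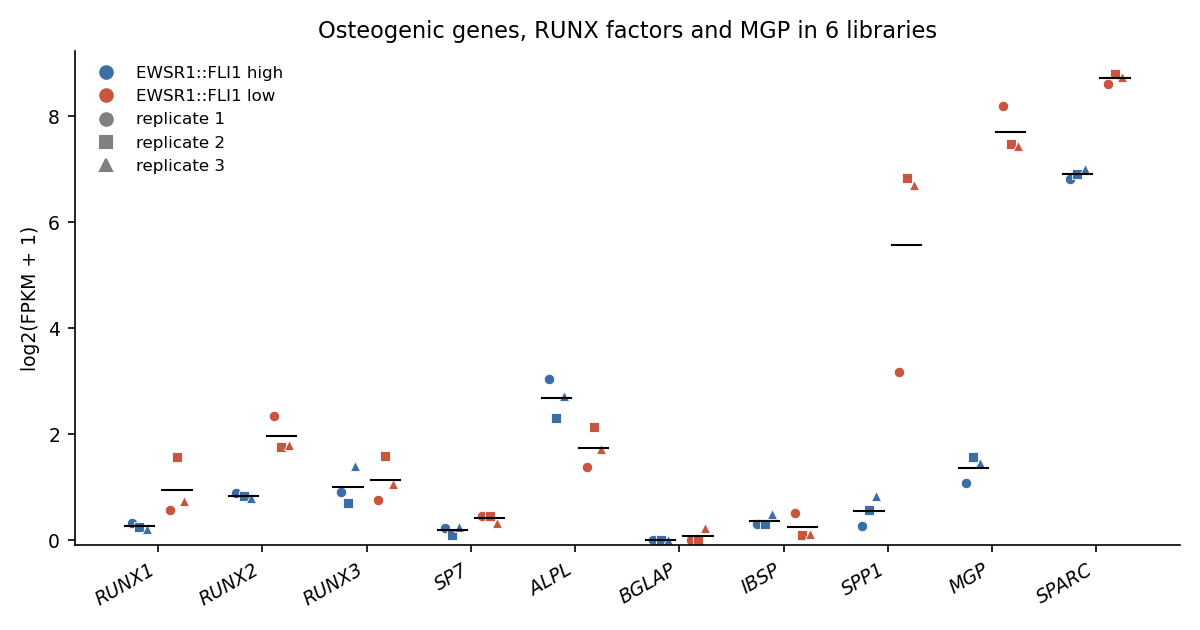
Expression of the 10 genes in each of the 6 libraries, as log2(FPKM + 1), with EWSR1::FLI1 high in blue, low in red, the replicate number as the marker shape and the mean of 3 libraries as a black line. MGP lies between 1.10 and 1.96 FPKM in the high and 172 and 291 FPKM in the low libraries, while SP7, IBSP and BGLAP stay near the bottom of the axis in all 6.

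MGP, at chr12:15033798-15038791 on the minus strand, had the largest difference of the 10 on the log2(FPKM + 1) scale with all libraries, while SPP1 had the larger ratio of means and, without low replicate 1, the larger difference. MGP was at 1.10, 1.96 and 1.75 FPKM (17, 23 and 20 reads) in EWSR1::FLI1 high replicates 1 to 3 and at 291, 177 and 172 FPKM (3813, 2135 and 3941 reads) in the low replicates. The mean rose from 1.604 ± 0.449 to 213 ± 67.5 FPKM (SD, n = 3 each), a ratio of 133 and a difference of 6.33 on the log2 scale (SE 0.25, 95% interval 5.76 to 6.90), or 6.09 without low replicate 1. Its rank among all symbols moved from between 10513 and 12039 in the high libraries to 59, 246 and 278 in the low ones. C12orf60, a gene annotated over MGP on the opposite strand, was at 3.40 to 5.41 FPKM in the low and 3.72 to 4.36 FPKM in the high libraries, with a difference of 0.03. The sources used here do not say whether strand was used in counting.

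SPP1, at chr4:88896819-88904684 on the plus strand, was detected by 4, 7 and 11 reads in the high libraries, at 0.210, 0.484 and 0.783 FPKM. In the low libraries it was at 8.06, 114 and 103 FPKM, from 130, 1696 and 2911 reads. All 3 low libraries lay above all high ones, but replicate 1 held 0.0743 of the mean of the other 2. The mean went from 0.492 ± 0.286 to 75.0 ± 58.2 FPKM (SD, n = 3 each), a ratio of 152, and the difference was 5.02 on the log2 scale (SE 0.82, 95% interval 3.15 to 6.88). Without low replicate 1 the difference was 6.21.

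SPARC, at chr5:151040657-151066536 on the minus strand, was the most abundant of the 10 in every library. It measured 112, 119 and 127 FPKM in the high libraries and 389, 444 and 427 FPKM in the low libraries. This was an increase from 119.6 ± 7.52 to 419.9 ± 28.2 FPKM (SD, n = 3 each), 3.51-fold, with a difference of 1.80 on the log2 scale (SE 0.15, 95% interval 1.46 to 2.15), or 1.86 without low replicate 1. SPARC thus gained the most FPKM of the 10, with the smallest relative spread in the low libraries. Its rank went from 503 to 527 in the high libraries to 40 to 46 in the low libraries.

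RUNX2, at chr6:45295894-45632086 on the plus strand, was at 0.842, 0.783 and 0.738 FPKM in the high libraries (51, 36 and 33 reads). In the low libraries it was at 4.07, 2.39 and 2.47 FPKM (209, 113 and 222 reads), each above every high library. The mean rose 3.78-fold, from 0.788 ± 0.0521 to 2.98 ± 0.951 FPKM (SD, n = 3 each), and the difference was 1.13 on the log2 scale (SE 0.19, 95% interval 0.69 to 1.57), or 0.94 without low replicate 1. SUPT3H, which overlaps RUNX2 on the opposite strand, was at 2.18 to 2.504 FPKM in the high and 2.84 to 3.24 FPKM in the low libraries (difference 0.28, limma adjusted p = 0.227).

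RUNX1, the RUNX factor of definitive haematopoiesis, lies at chr21:36160098-37376965 on the minus strand and was low in the high libraries, at 0.251, 0.189 and 0.162 FPKM (21, 12 and 10 reads). In the low libraries it was at 0.479, 1.96 and 0.659 FPKM (34, 128 and 82 reads). The groups did not overlap, as in 17.5% of tested genes in this direction, and low replicate 2 was above all others. The difference was 0.69 (SE 0.26, 95% interval 0.11 to 1.28), or 0.88 without low replicate 1, and without low replicate 2 the gene was too low to be tested. With all libraries RUNX1 was not past the adjusted p of 0.01. RUNX3, at chr1:25226002-25291612 on the minus strand and known for its part in T cells and sensory neurons, was at 0.879, 0.632 and 1.65 FPKM in the high and 0.684, 2.02 and 1.09 FPKM in the low libraries. Its groups overlapped (difference 0.13, SE 0.26, 95% interval -0.46 to 0.72), and the difference was 0.32 without low replicate 1. The sign turned to -0.10 without low replicate 2, to -0.02 without high replicate 2 and to -0.0076 with quantile normalization.

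The balance among the RUNX genes differed from library to library. Their summed level was 1.97, 1.603 and 2.55 FPKM in the high libraries and 5.24, 6.36 and 4.22 FPKM in the low libraries, with no overlap. RUNX2 made up 42.7, 48.8 and 28.9% of that sum in the high libraries and 77.8, 37.5 and 58.5% in the low libraries, and these shares overlapped. RUNX3 was the most abundant of the 3 in high replicates 1 and 3, and RUNX2 in high replicate 2 and in all low libraries.

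**Figure D2:**
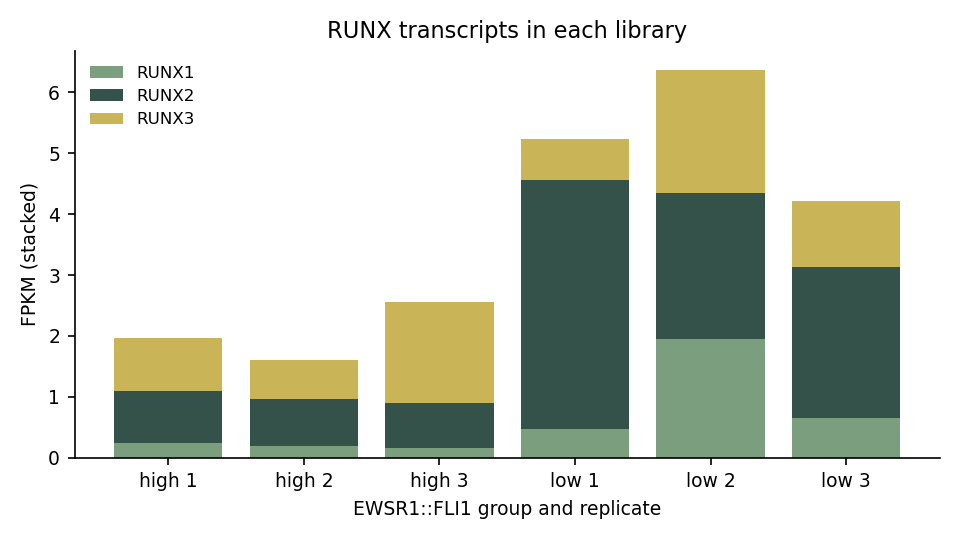
Stacked FPKM of RUNX1, RUNX2 and RUNX3 in each library, with the EWSR1::FLI1 group and replicate on the horizontal axis. The sum lies between 1.603 and 2.55 FPKM in the high and between 4.22 and 6.36 FPKM in the low libraries, and RUNX2 takes from 37.5 to 77.8% of it in the low libraries.

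ALPL, at chr1:21835890-21904903 on the plus strand, was the gene of the 10 with a lower level in EWSR1::FLI1 low cells in every library. It was at 7.23, 3.91 and 5.62 FPKM in the high and at 1.603, 3.38 and 2.30 FPKM in the low libraries. The groups did not overlap, as in 23.6% of tested genes in this direction, with 0.533 FPKM between the lowest high and the highest low library. The means were 5.59 ± 1.66 and 2.43 ± 0.896 FPKM (SD, n = 3 each), a difference of -0.94 on the log2 scale (SE 0.25, 95% interval -1.51 to -0.38), or -0.76 without low replicate 1. The interval is not adjusted for the number of genes tested, and ALPL was not past the adjusted p of 0.01.

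SP7, IBSP and BGLAP had mean levels of 0.239, 0.244 and 0.029 FPKM over the 6 libraries, under the 0.5 FPKM required for testing, and RUNX1, at 0.616, was the member just above it. SP7 (chr12:53720359-53739099) had 6, 2 and 5 reads in the high libraries and 11, 10 and 13 reads in the low libraries, which is 0.172, 0.0756 and 0.195 against 0.373, 0.368 and 0.251 FPKM. These values did not overlap, but in each library 21.4 to 62.7% of the genes too low to be tested lay above SP7. IBSP (chr4:88720706-88733587) had 4, 3 and 5 reads in the high and 6, 1 and 2 reads in the low libraries, with overlap. BGLAP (chr1:156211975-156213108) had 0 reads in 5 libraries and 2 reads in low replicate 3, where a count of 0 allows up to 3 reads. PMF1-BGLAP, which runs through BGLAP and whose reads could be shared with it, had 1 read in a single high library. A difference in IBSP or BGLAP was not detectable at this depth.

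Of the 10 genes, 7 were tested among 15504 genes at an adjusted p of 0.01. In EWSR1::FLI1 low cells 4 of the 7 were higher and 0 lower at that limit, where 4.51% of all tested genes were higher and 3.37% lower. MGP and SPP1 were the 2 that also passed a log2 difference of 2.5, as 0.813% of tested genes did. Of the 7, 5 had low libraries that all lay above the high ones, against 17.5% of tested genes, and 1 (ALPL) had low libraries that all lay below, against 23.6%. Since the genes were chosen with this contrast known, nothing is read from these shares. MGP and SPARC were past the limit with each library left out in turn. RUNX2 and SPP1 were no longer past it without high replicate 1, 2 or 3 or without low replicate 3, which leaves 2 of the 7, and they were past it without low replicate 1 or 2. With no filter on low values, too, only MGP and SPARC of the 7 passed.

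**Figure D3:**
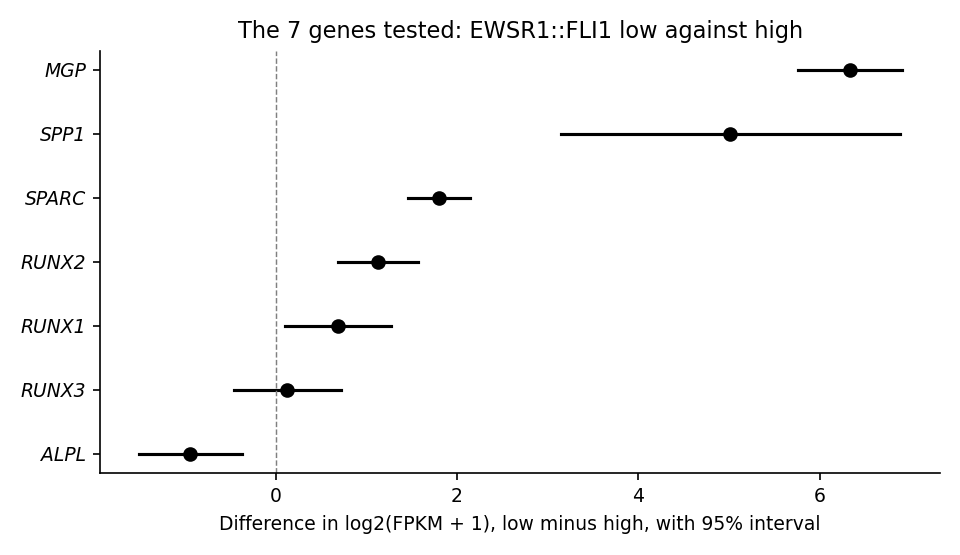
Difference in log2(FPKM + 1), low minus high, with its 95% interval for the 7 genes that passed the filter on low values. MGP (6.33) and SPP1 (5.02) lie far to the right, SPP1 with the widest interval, and the interval of RUNX3 spans 0.

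The order of levels changed between the conditions. In the high libraries SPARC was followed by ALPL, with no overlap between them or with the next gene, and the 7 genes from MGP, RUNX3 and RUNX2 down to SP7 each overlapped their neighbour. In the low libraries SPARC, MGP and SPP1 led without overlapping each other, in that order of means. RUNX2, ALPL, RUNX3 and RUNX1 followed, each overlapping the next. The SPARC level was 60.7 to 102-fold that of MGP in the high libraries and 1.34 to 2.51-fold in the low libraries.

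The 3 low libraries did not agree on how far each gene had moved. Replicate 1 held 1.67 times the mean MGP and 1.68 times the mean RUNX2 of replicates 2 and 3, but 0.366 of their RUNX1, 0.44 of their RUNX3, 0.564 of their ALPL and 0.0743 of their SPP1. SPARC differed least, at 0.894. The ratio of MGP to SPP1 was 36.1 in replicate 1 and 1.55 and 1.67 in replicates 2 and 3. FLI1 was lowest in replicate 1, at 2.91 FPKM. Whether its library properties given above had a part in this was not tested.

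**Figure D4:**
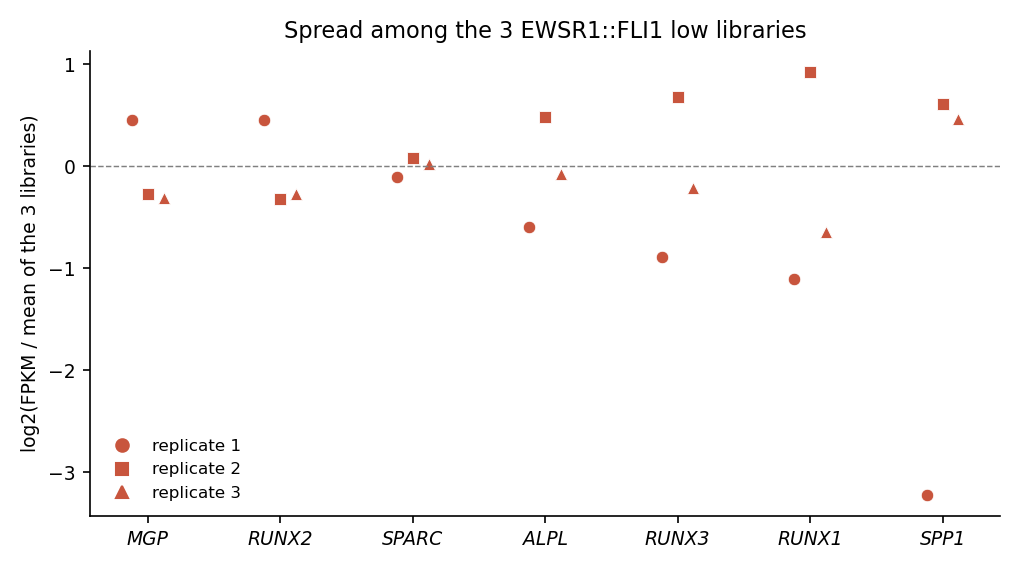
Level of 7 genes in each EWSR1::FLI1 low library relative to the mean of the 3 low libraries, on a log2 scale, with the replicate as the marker shape. Replicate 1 is above the other 2 for MGP and RUNX2, and below them for ALPL, RUNX3, RUNX1 and, farthest, SPP1.

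In the gene lists that follow, counts are of genes past the adjusted p of 0.01, and they stand beside 4.51% higher and 3.37% lower among all tested genes, or 10.2% and 5.41% in the fit without low replicate 1. The lists were chosen with these data known, and nothing particular to a list is read from its counts. CBFB, which encodes the common β subunit, was at 86.5, 103 and 118 FPKM in the high and 88.5, 99.9 and 121 FPKM in the low libraries (difference 0.01, 95% interval -0.44 to 0.46), 43.9 to 64.4 times the summed RUNX level in the high and 15.7 to 28.8 times in the low libraries. Of 25 partners and regulators, 22 were tested, 2 rose and 0 fell, with a median difference of 0.12 against -0.05 over all tested genes. SMURF2 made 3 higher of 21 tested without low replicate 1. The corepressor TLE1 rose from 1.64 ± 0.205 to 7.34 ± 0.526 FPKM (SD, n = 3 each), a difference of 1.66 (SE 0.15, limma adjusted p = 0.000258), and the coactivator WWTR1 (TAZ) by 1.39 (SE 0.17, adjusted p = 0.000785), the latter not without high replicate 2. Among 20 other osteoblast transcription regulators, 18 were tested, 3 rose (CEBPD by 2.29, PRRX1 by 1.96 and MSX2 by 1.28) and 1, ALX4, fell by 1.93. The ALX4 call was lost without any of the high replicates and without low replicate 3. Without low replicate 1, VDR was also higher and DLX5 and DLX6 also lower, which made 4 higher and 3 lower of 18.

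Of 30 other bone matrix and osteocyte genes, 19 were tested, 7 rose and 1 fell, and the median difference was 0.62. The count was 7 higher and 2 lower of 17 without low replicate 1, with DCN added. POSTN (periostin) went from 3.68 ± 1.41 to 209 ± 112 FPKM, COL1A2, a chain of type I collagen, from 1.31 ± 0.480 to 36.4 ± 12.1 FPKM, and STC1 (stanniocalcin) from 11.6 ± 1.86 to 146 ± 97.4 FPKM (SD, n = 3 each). The other 4 were COL1A1 (2.18), FSTL1 (2.30) and the SPARC relatives SPARCL1 (2.86) and SPOCK1 (3.05). CLEC11A, a secreted osteogenic factor, fell by 1.46, a call lost without high replicate 2 or 3. The osteocyte and late osteoblast genes DMP1, MEPE, SOST, FGF23 and IFITM5 were too low to be tested.

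Of 17 phosphate, pyrophosphate and alkaline phosphatase genes, 8 were tested, 2 rose and 2 fell (median difference 0.09). SLC20A1 made 3 higher and 2 lower of 7 without low replicate 1. NT5E (CD73), which releases phosphate and adenosine from AMP, rose from 26.0 ± 5.97 to 308 ± 136 FPKM (SD, n = 3 each), a difference of 3.43. ANKH, which exports the source of extracellular pyrophosphate, rose by 1.36, while ENPP1, which makes pyrophosphate from ATP, fell by 1.13. PHOSPHO1, a phosphatase of mineralizing matrix vesicles, fell from 6.92 ± 2.27 to 0.841 ± 0.245 FPKM, or by 2.08. The calls of ANKH and ENPP1 were lost without any of the high replicates and without low replicate 2, and that of ANKH also without low replicate 3. The ALPL relatives ALPI, ALPP and ALPPL2 were too low to be tested.

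The vitamin K cycle, on which Gla proteins depend, was expressed in both conditions. The carboxylase GGCX was at 6.15 to 7.40 FPKM in the high and 7.78 to 9.96 FPKM in the low libraries, without overlap (difference 0.37, limma adjusted p = 0.162). The reductase VKORC1 was at 29.2 to 35.8 and 27.9 to 60.3 FPKM, with overlap (0.49, adjusted p = 0.258). Of 19 genes of the cycle and other Gla proteins, 13 were tested and 1 rose, PROS1 (protein S), by 1.14. Its call was lost without each library in turn other than low replicate 1. Without low replicate 1, CALU, GAS6, NQO1 and VKORC1 were higher too, 5 of 11 tested.

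The list of osteopontin and SPARC receptors and of proteases that cleave osteopontin held 5 genes that rose and 0 that fell among 12 tested of 14, with a median difference of 1.07. All 5 were receptor genes. Of the 12, 8 were higher without low replicate 1, with ITGA5, ITGB1, ITGB3 and ITGB5 added and ITGA9 lost. CD44, an osteopontin and hyaluronan receptor, was at 4.58, 6.09 and 8.51 FPKM in the high and 28.6, 117 and 96.6 FPKM in the low libraries (difference 3.28, SE 0.47, limma adjusted p = 0.00207), a call lost without high replicate 2 or low replicate 3. Like SPP1, it was lowest in low replicate 1 among the low libraries. The integrin subunits ITGA4 (2.81) and ITGAV (2.04) rose with every library left out in turn, and ITGA8 and ITGA9 rose by 1.03 and 1.02. The calls of ITGA8 and ITGA9 were lost without any of the high replicates, that of ITGA8 also without low replicate 2 and that of ITGA9 without low replicate 1 or 3. The partner subunit ITGB3 went from 0.158 to 0.253 FPKM in the high libraries to 1.38, 8.52 and 4.51 FPKM in the low ones. In the BMP pathway 17 of 21 genes were tested and 1, the receptor BMPR2, rose by 0.95, a call lost without each library in turn other than low replicate 1. Without low replicate 1, 5 of 16 were higher, with the receptor ACVR1, the inhibitors SMAD7 and GREM1 and the pseudoreceptor BAMBI added. BMP2, a ligand that induces osteoblasts, was at 0.272, 0.279 and 0.246 FPKM in the high and 0.4998, 0.968 and 0.244 FPKM in the low libraries, too low to be tested.

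**Figure D5:**
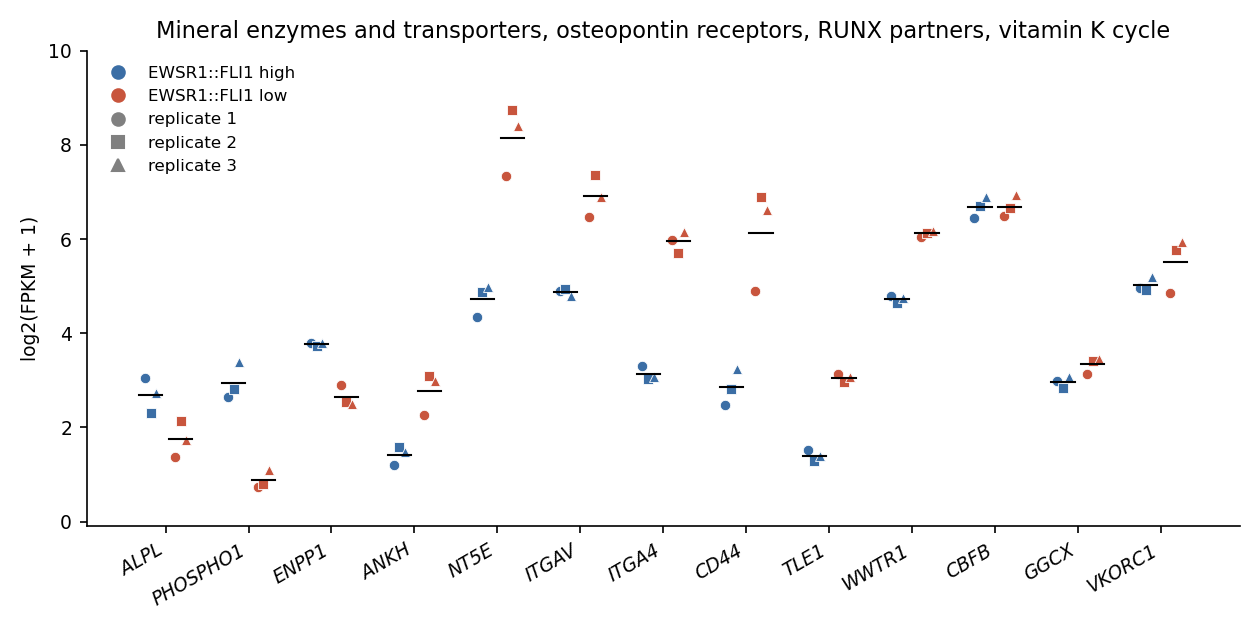
Expression of ALPL, other mineral enzymes and transporters, osteopontin receptors, RUNX partners and vitamin K cycle genes in each library, as log2(FPKM + 1), with EWSR1::FLI1 high in blue, low in red, the replicate as the marker shape and the mean of 3 libraries as a black line. NT5E, ITGAV, ITGA4, CD44, ANKH, TLE1 and WWTR1 are higher and PHOSPHO1 and ENPP1 lower in the low libraries, and the CBFB groups overlap.

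Markers of other cell types were read beside these genes. Chondrocyte genes had 5 of 12 tested and 1 higher (SOX9, 1.98), with a summed level of 17.6 to 22.4 FPKM in the high and 31.7 to 43.2 FPKM in the low libraries, and COL2A1 at most 0.553 FPKM. Adipocyte genes had 4 of 9 tested and 1 higher (LPL, 2.61), with sums of 7.55 to 9.25 and 29.0 to 43.8 FPKM, and ADIPOQ at most 0.342 FPKM. Of muscle genes 1 of 9 was tested, of osteoclast and myeloid genes 3 of 10, and of endothelial and epithelial genes 4 of 9, with 0 past the limit in any of them. Without low replicate 1, SOX5 was also higher and SOX6 lower among chondrocyte genes, FABP4 and PPARG also higher among adipocyte genes, and ACP5 higher among osteoclast and myeloid genes. PTPRC, which marks blood cells, was at most 0.667 FPKM, and MYOD1 at most 0.0695 FPKM. The sums were 1.69 to 2.58 and 2.25 to 3.92 FPKM for muscle, 15.6 to 19.4 and 16.0 to 33.4 FPKM for osteoclast and myeloid, and 51.7 to 80.5 and 43.96 to 113 FPKM for endothelial and epithelial genes. Of 10 Ewing sarcoma genes all were tested and 7 fell, among them PRKCB (2.96), NR0B1 (2.56) and STEAP1 (2.18). The list held both genes of the fusion. FLI1, read above as the check of the targeted transcript, is among the 7, and EWSR1 was not past the limit. With both included, the sum of the list went from 874 to 935 FPKM in the high to 267 to 358 FPKM in the low libraries. The NR0B1 call was lost without high replicate 2 or 3, and without low replicate 1 the count was 8, with CD99.

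Across the 6 libraries, the genes whose log2(FPKM + 1) was most like that of MGP were DACT1, TGFB2 and RDH10 (Pearson r 0.999 each). These points share libraries and 2 conditions, and 496 genes had r above 0.95 with MGP. For ALPL the most alike were LOC90784 (0.996), ZNF527 (0.983) and PODXL2 (0.981), among 27 genes above 0.95.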

How the data were processed

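The 6 libraries were aligned by the authors to GRCh37 with STAR, with Cufflinks also named for abundances (submitters' processing notes: STAR 2.5.0b, Cufflinks 2.2.1). The authors deposited FPKM per gene symbol and library, without pooling. They also deposited a table of their DESeq2 comparison, of which only the mean normalized signal per gene was used here, and its fold changes and p-values were not. FPKM times that signal over the mean FPKM gave whole reads for 100% of values (tolerance 0.1), which are the read numbers given, and the limit of 3 reads for a count of 0 covers counting error only.

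The test, limma 3.58.1 in R 4.3.3 with trend, took log2(FPKM + 1) of genes whose mean FPKM reached 0.5, low against high, with Benjamini-Hochberg adjustment over 15504 genes and the study's limits (adjusted p of 0.01, log2 difference of 2.5). Counts of no replicate pair agreed within sampling noise (chi-square per degree of freedom from 4.25 to 31.5). It was 4.25 to 6.27 between high libraries and 20.2 between low replicates 2 and 3. Low replicate 1 had 31.5 with replicate 2 and 28.95 with replicate 3. The genes and lists were chosen with earlier results of these data known. Named besides the 10 were FLI1, the fixed partners, up to 3 genes per list and direction with the largest change past the limit (ITGA8, ITGA9, COL1A1, FSTL1, SPARCL1, SPOCK1, ITGB3, C12orf60, SUPT3H, defining markers and genes called without low replicate 1 were added after their values were seen), and the 3 genes most like MGP and ALPL. The script was tested on simulated data. Gene positions are from GENCODE v44lift37 (GRCh37).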

Additional observations from a re-analysis of the deposited data

How the results depend on the processing

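Results were recomputed with another pseudocount, other filters, scalings and weights, no trend, a replicate block, each library left out, and limma-voom on recovered reads. The deposited values already carried a scaling factor per library, so median-ratio scaling, counted among the 15, came close to repeating the main fit. It gave 1222 genes past the limit, as the main fit did. MGP and SPARC were past the limit under all 15, with log2 differences from 6.09 to 7.08 and from 1.76 to 1.90. RUNX2 and SPP1 were past it under 9 of 15 each (0.94 to 1.85, and 4.38 to 6.87). ALPL was past it under 0 of 15 (-1.19 to -0.65), RUNX3 under 0 of 15, and RUNX1 under 1 of 13, sample quality weights. RUNX3 reversed to -0.0076 with quantile normalization and within a range of -0.10 to 0.33 with a library left out. The 4 genes of the 10 past the limit became 2 with no filter on low values, and 2 to 4 with a library left out. All tested genes past the limit, 1222, became 124 with no filter (FLI1 then -1.57, adjusted p = 0.0157, limma), 1992 with quantile normalization, 4745 with sample quality weights, 2391 with limma-voom and 475 to 2334 with a library left out. With the filter off 26364 genes were tested. The causes of these shifts, that with no filter included, were not tested. Same-numbered libraries correlated at 0.271, 0.089 and 0.124 in their deviations from the group means. Differently numbered libraries of the 2 groups correlated at -0.289 to 0.189, and the numbers were not taken as pairs. The replicate block gave 1702 genes past the limit against 1222, with 786 lower against 522, and changed no call among the 10. Of 420 list counts under alternatives, 341 stayed within 1.5 times and 79 moved. BMP pathway genes higher went from 1 to 6 with sample quality weights, 4 with limma-voom and 3 with the replicate block, and those of the vitamin K and Gla list from 1 to 5, 2 and 1. Of 34 list genes past the limit, 22 kept their call in every fit with a library left out, 26 lost it with no filter, and all 34 kept their direction in all 15. Depth limits SP7, IBSP and BGLAP, with at most 13 reads in a library.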
